A study of Homo sapiens with 16 samples.

Results

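The etoposide list of TOP2A cleavage cluster regions held 173814 regions on chromosomes 1 to 22, and 1761 of them (1.01%) carried several scores in place of 1. These joined regions were selected on the number of scores alone, so neither that number nor the presence of several components is a finding. Each score belongs to a component, a shorter region whose start the list also gives, and 1737 joined regions had 2 components while 24 had 3. Just outside the choice stood the 172053 regions with exactly 1 score. Another 57 joined regions lay on chromosomes X and Y and were not used.

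The cells were K562, an established human line from chronic myeloid leukaemia with a BCR-ABL1 fusion, and TOP2A was immunocaptured with its covalently bound DNA before sequencing. Etoposide was given at 25 µM for 1 h. The lists set beside it came from cells given 50 µM genistein for 1 h, mitoxantrone at 2 µM for 1 h, p-benzoquinone at 8 µM for 4 h, or vehicle. All of them shared 0.05% DMSO, and vehicle exposure was 1 or 4 h, without a record of which library had which. Pre-amplified libraries numbered 3 for etoposide, 2 for genistein, 1 for mitoxantrone, 2 for p-benzoquinone and 3 for DMSO, and the authors pooled those of 1 treatment into 1 list. No region therefore has a value per labelled library, and no p-value between samples can be given. Percentages carry exact binomial 95% intervals that cover counting error only. Neighbouring regions are not independent, and PCR reads that carry no molecular identifiers cannot be counted as independent molecules.

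DNA topoisomerase II alpha (TOP2A) is an enzyme of dividing cells that cuts both strands of one duplex, passes another duplex through the gap and reseals the cut. During this cycle each subunit is held to a DNA end by a covalent bond to a tyrosine, a state called the cleavage complex. Etoposide and mitoxantrone stop the resealing step. Genistein is a plant isoflavone that also traps the enzyme, and p-benzoquinone, a benzene metabolite, acts on it covalently. Cleavage complexes trapped by etoposide are studied in leukaemia because treatment with the drug can be followed by translocations, for example of KMT2A. A joined region is taken here as a place where region calls of different libraries met, although the list does not label the library of a component.

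Joined regions reached the promoter window of a protein-coding gene (250 bases before to 50 after the start) in 6 cases, 0.341% of them (95% interval 0.125 to 0.740). Single-value regions did so in 448 cases, or 0.260%, and all etoposide regions in 0.261%. The genes were TMUB1, which encodes a ubiquitin-like membrane protein, MAN1C1, a Golgi mannosidase, SH3BP4, a regulator of endocytosis, TBX5, a heart and limb transcription factor, TRIML2, a tripartite-motif-like protein, and ANKRD42, an ankyrin repeat protein. The 4 windows below are shown because they hold the strong and the common-start members among the 6. TMUB1 and MAN1C1 lay under joined regions whose components all scored at least 4. TRIML2 and ANKRD42 lay under joined regions whose components began at the same base. Sequences are RefSeq GRCh38.p14, 5′ to 3′ on the gene's strand, with capitals for the bases under the joined region. They are TMUB1 at chr7:151083444-151083743 (minus strand), MAN1C1 at chr1:25695905-25696204 (plus strand), TRIML2 at chr4:188105538-188105837 (minus strand) and ANKRD42 at chr11:83193462-83193761 (plus strand).
TMUB1: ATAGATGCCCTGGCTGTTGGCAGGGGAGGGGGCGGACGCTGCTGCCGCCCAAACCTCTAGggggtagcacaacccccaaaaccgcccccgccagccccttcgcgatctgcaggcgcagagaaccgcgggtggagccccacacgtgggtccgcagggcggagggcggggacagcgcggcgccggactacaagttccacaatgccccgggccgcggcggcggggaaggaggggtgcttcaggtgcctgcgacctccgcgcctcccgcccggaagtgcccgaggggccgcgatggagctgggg
MAN1C1: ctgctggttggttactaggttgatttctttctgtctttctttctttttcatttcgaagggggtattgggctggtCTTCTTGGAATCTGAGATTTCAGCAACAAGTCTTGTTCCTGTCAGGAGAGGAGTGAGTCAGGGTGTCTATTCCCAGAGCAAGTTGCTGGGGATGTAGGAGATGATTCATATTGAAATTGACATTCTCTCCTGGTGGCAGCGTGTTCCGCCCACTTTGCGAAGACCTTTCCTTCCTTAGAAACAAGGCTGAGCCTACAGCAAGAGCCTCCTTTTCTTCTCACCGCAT
TRIML2: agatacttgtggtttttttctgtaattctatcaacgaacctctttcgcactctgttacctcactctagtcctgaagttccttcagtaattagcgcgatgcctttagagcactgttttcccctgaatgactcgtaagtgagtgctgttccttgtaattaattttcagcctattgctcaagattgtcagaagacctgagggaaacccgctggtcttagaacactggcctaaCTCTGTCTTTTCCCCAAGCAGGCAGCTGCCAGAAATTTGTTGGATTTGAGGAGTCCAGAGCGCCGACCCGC
ANKRD42: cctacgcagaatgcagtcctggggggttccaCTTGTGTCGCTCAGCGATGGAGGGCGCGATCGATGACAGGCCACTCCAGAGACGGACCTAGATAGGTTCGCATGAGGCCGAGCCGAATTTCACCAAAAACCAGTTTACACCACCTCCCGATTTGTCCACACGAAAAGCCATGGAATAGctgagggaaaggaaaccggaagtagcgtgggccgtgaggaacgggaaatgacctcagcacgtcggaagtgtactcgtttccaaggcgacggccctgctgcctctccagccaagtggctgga

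The joined region at TMUB1 had scores of 4.94 and 20.71 and covered the first 60 bases of the window. At MAN1C1 the scores were 4.19 and 9.49, and bases 75 to 300 of the window were covered. The scores at TRIML2 were 2.28 and 2.95, over bases 230 to 300. At ANKRD42 they were 1.96 and 6.17, over bases 32 to 179. The covered stretch thus held the annotated start site at MAN1C1 and TRIML2 and lay upstream of it at TMUB1 and ANKRD42. The other 2 windows were covered over bases 1 to 197 at TBX5, with scores of 2.71 and 18.34, and over bases 1 to 152 at SH3BP4, with scores of 2.74 and 17.65. GC content of the 6 windows ran from 46.0% to 73.0% with a median of 52.3%. The median was 54.7% in the 485 promoter windows under a single-value region and 62.7% in all 21156 windows. On either strand, the GC box GGGCGG was present at TMUB1 and MAN1C1 and in 56.6% of all windows. The E-box CACGTG was present at TMUB1 and in 8.25% of all windows, and CCAAT was present at MAN1C1 and SH3BP4 and in 34.4%. The TATA letters TATAAA occurred in none of the 6 and in 9.51% of all windows. A match of this kind describes letters only.

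Joined regions were wider than single-value regions. Their median width was 205 bp, with quartiles of 166 and 275 bp, against 158 bp in single-value regions, whose quartiles were 139 and 179 bp. Joining adds the unshared ends of the components, so this width is part of how a joined region is made. The score is taken here as a normalized read number, an inference from its steps, since its unit is not stated. Scores fell on whole multiples of 3 step sizes, 0.2278, 0.2457 and 0.3382, each taken as the worth of 1 read in 1 library. They are called fine A, fine B and coarse here, and the lowest scores on them stood for 8, 8 and 11 reads. Of 61934 single scores below 6, 99.99% lay within 0.5% of a multiple of a step, as did 2477 of 2478 components of joined regions below 6. Of the 418 values that 2 decimals allow from the list minimum to 6, 36.8% lie that close to a step. High scores fit several steps within this tolerance, so their step often could not be read. Which labelled library belongs to which step is not assigned.

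Components of joined regions are ranked here by score, so a gap between the lowest and the highest is partly built in. The lowest component had a median score of 2.46 and the highest a median of 7.46, and single-value regions had a median score of 7.79. The gap moved with the steps. Medians were 2.21 and 3.545 where fine A was paired with fine B, and 2.46 and 7.79 where a fine step was paired with coarse. In regions of 2 components the higher score was a median of 2.67 times the lower. It was under 2 times in 623 regions (35.9%) and 5 times or more in 435 (25.0%). In 126 regions a component stood at 1.82, the lowest score in the list. Every component reached 4 in 148 regions, or 8.40%. The share of etoposide regions that were joined lay between 0.928% and 1.45% in every class of highest score. It was 1.11% below a score of 4 (1.00 to 1.23), 0.964% from 4 to 8 (0.886 to 1.05), 0.928% from 8 to 16 (0.851 to 1.01), 1.15% from 16 to 32 (1.01 to 1.30) and 1.45% at 32 or more (1.07 to 1.92).

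The members with a high score in their lowest component were few. At chr19:47242150-47242418 fine B had 45 reads (score 11.09) and fine A had 63 reads (14.39), with starts 88 bp apart. That region lay outside protein-coding genes, and a p-benzoquinone region with a score of 5.55 covered 181 bp of it. At chr1:228992232-228992410 fine B had 40 reads (9.87) and coarse had 46 reads (15.62), with starts 4 bp apart and no overlap with another list. At chr6:53309643-53309850, in the fatty acid elongase gene ELOVL5, fine A had 31 reads (7.06) and the other component scored 35.32. There a mitoxantrone region with a score of 40.85 and a p-benzoquinone region with a score of 9.90 also lay. In CNGB1, which encodes a subunit of a photoreceptor ion channel, the scores were 7.52 and 45.86 at chr16:57892889-57893188, with no overlap with another list. Of the 10 members with the highest lowest component, 5 overlapped a p-benzoquinone region, 1 a DMSO region, 1 a mitoxantrone region and 0 a genistein region. The shares over all joined regions were 25.6%, 16.1%, 7.44% and 13.9% in the same order. Over all etoposide regions they were 8.74%, 8.46%, 5.05% and 10.0%. With only 10 members, these counts are too few for a comparison.

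Among the 24 regions with 3 components, KIRREL3, a cell adhesion gene, held one at chr11:126510889-126511160 with 17 reads in fine B, 16 reads in fine A and another component scored 21.39. COL26A1, a collagen gene, held one at chr7:101434817-101435032 with 27 reads in coarse and fine scores of 2.96 and 3.20. In MEI4, a meiotic recombination gene, the scores at chr6:77746781-77746946 were 31.94, 2.95 and 3.88. The widest joined region of the list, 710 bp at chr4:55246584-55247293, paired a score of 18.95 with 9 reads in fine A that began 615 bp further on.

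The distance between component starts separated 2 kinds of joined region. In 338 regions (19.2%, 95% interval 17.4 to 21.1) the components began at the same base, and in another 96 they began 1 to 4 bp apart, while the median distance over all members was 45 bp. Common starts were far more frequent where both components came from the fine steps. Of 522 regions that paired fine A with fine B, 273 had a common start (52.3%, 47.9 to 56.7). Of 568 regions that paired a fine step with the coarse one, 27 had one (4.75%, 3.16 to 6.84). The pairing with coarse gave 5.28% with fine A (19 of 360) and 3.85% with fine B (8 of 208). In 647 regions the pairing could not be resolved, and 38 of them (5.87%, 4.19 to 7.97) had a common start. None of the 24 regions of 3 components had 1 start for all of them.

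**Figure D1:**
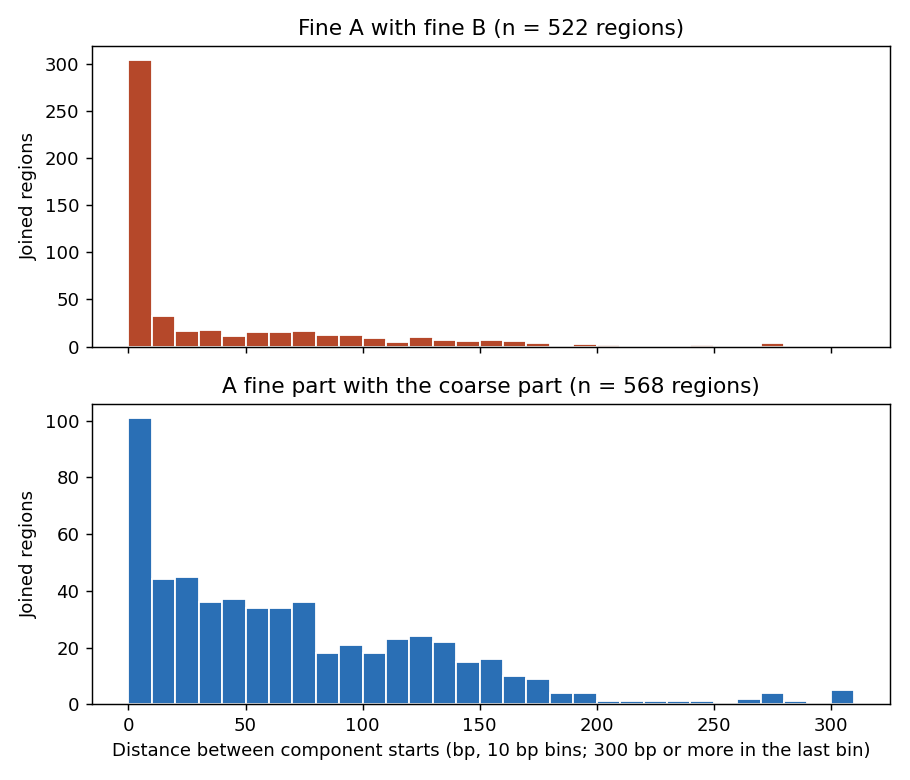
Distance between the starts of the components of joined etoposide regions with 2 resolved components, in bins of 10 bp, with 300 bp or more in the last bin. The upper panel holds the 522 pairs of fine A with fine B and the lower panel the 568 pairs of a fine step with the coarse step. The first bin dominates the upper panel, where 273 pairs have a distance of 0, and holds a smaller share of the lower panel, where 27 do.

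Common starts were rarer among the joined regions of the other lists that hold several scores. They made up 3.84% of 7283 joined DMSO regions (3.41 to 4.31) and 2.96% of 5651 joined p-benzoquinone regions (2.53 to 3.43). Median start distances were 66 bp in DMSO and 72 bp in p-benzoquinone. The list minimum differs between lists. The number of pooled libraries was 3 for etoposide and for DMSO and 2 for p-benzoquinone.

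Common-start members were narrower and scored lower than different-start members as a whole, and the mix of steps differed between them: 273 of 338 were resolved as fine pairs, against 249 of 1423. Their median width was 159 bp, against 224 bp for different-start members. Their lowest and highest components had median scores of 2.21 and 3.93, against 2.51 and 8.81 for different-start members. In the 273 common-start pairs of the fine steps, fine A had a median of 15 reads and fine B a median of 9. Fine A held more reads in 228 of them, fine B in 32, and 13 were equal. In the 249 different-start fine pairs the medians were 13 reads in fine A and 10 in fine B, and fine A held more in 156, fine B in 74, and 19 were equal. Within fine pairs, then, common-start members were not lower in fine A. Across the 273 common-start pairs the log2 read numbers had a Pearson correlation of 0.29, and across the 249 different-start fine pairs one of 0.15. Both are descriptions over regions that share the same libraries and the same minimum of 8 reads. The 5 narrowest members, 27 to 37 bp wide, were all common-start pairs of the fine steps. They included chr15:41340259-41340292 in NUSAP1, a mitotic spindle gene, with 15 reads in fine A and 9 in fine B, and chr6:7895525-7895561 in TXNDC5, a protein disulfide isomerase, with 13 reads in fine A and 8 in fine B.

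Joined regions recurred in the other 4 lists more often than single-value regions did. At least 1 other list overlapped 864 joined regions by 1 bp or more (49.1%, 46.7 to 51.4), against 27.4% of single-value regions (27.2 to 27.6) and 27.6% of all etoposide regions. At least 2 lists did so for 218 joined regions (12.4%, 10.9 to 14.0), against 4.15% of single-value regions (4.05 to 4.24) and 4.23% of all. Single-value regions on a fine step stood at 30.5% and 4.96% in turn. Joined regions were wider, with a median of 205 bp against 158 bp in single-value regions, and width was not matched here. Both counts include p-benzoquinone, and no count without that list was made. Different-start members stood at 45.8% (43.2 to 48.4) for at least 1 list. Of these, 0 shared both ends with a p-benzoquinone region and 38 shared a start. Exactly 1 joined region was overlapped in all 4 lists (0.0568%, 0.00144 to 0.316), against 26 single-value regions (0.0151%, 0.00987 to 0.0221), and these intervals overlapped. That joined region, chr5:4841035-4841273, lay outside protein-coding genes and held 8 reads in fine B (1.96) and 11 reads in coarse (3.72), with starts 106 bp apart. The overlapping regions scored 38.97 with genistein, 42.47 with mitoxantrone, 3.36 with p-benzoquinone and 8.45 with DMSO.

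Over all members, the ratio to single-value regions was highest for p-benzoquinone, an order that the choice of members and of single-value regions turned round. A p-benzoquinone region overlapped 451 joined regions (25.6%, 23.6 to 27.7) and 8.57% of single-value regions (8.43 to 8.70). The share over all etoposide regions was 8.74%, and the ratio of joined to single-value shares was 2.99 (2.76 to 3.24). A DMSO region overlapped 284 joined regions (16.1%, 14.4 to 17.9) and 8.38% of single-value regions (8.25 to 8.52), with 8.46% over all regions and a ratio of 1.92 (1.73 to 2.14). A genistein region overlapped 245 joined regions (13.9%, 12.3 to 15.6) and 9.96% of single-value regions (9.82 to 10.1), with 10.0% over all and a ratio of 1.40 (1.24 to 1.57). A mitoxantrone region overlapped 131 joined regions (7.44%, 6.26 to 8.77) and 5.02% of single-value regions (4.92 to 5.13), with 5.05% over all and a ratio of 1.48 (1.25 to 1.75). Width and library moved with these ratios. Against the 30960 single-value regions on a fine step only, the ratios were 1.94 for p-benzoquinone, 1.56 for DMSO, 1.68 for genistein and 1.81 for mitoxantrone. Those regions had a median score of 2.46 and a median width of 146 bp, against 7.79 and 158 bp in all single-value regions. Score, width and library therefore cannot be told apart in this comparison. Different-start members alone against the same fine-step regions gave a ratio of 1.95 for mitoxantrone (1.62 to 2.34), 1.83 for genistein (1.61 to 2.08), 1.61 for DMSO (1.43 to 1.82) and 1.49 for p-benzoquinone (1.34 to 1.66), so p-benzoquinone then stood lowest. With the coarse components dropped, the ratio was 4.89 for p-benzoquinone, 1.79 for DMSO, 0.950 for genistein and 1.03 for mitoxantrone.

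The 2 kinds of joined region differed in this respect. Common-start members were overlapped by a p-benzoquinone region in 170 of 338 cases (50.3%, 44.8 to 55.8). Different-start members were overlapped in 281 of 1423 (19.7%, 17.7 to 21.9), and single-value regions on a fine step in 13.2% (12.8 to 13.6). For DMSO the shares were 13.6% with a common start (10.1 to 17.7), 16.7% with different starts (14.8 to 18.8) and 10.4% in fine-step single-value regions (10.0 to 10.7). For genistein they were 8.88% (6.07 to 12.4) with a common start, 15.1% (13.3 to 17.1) with different starts and 8.28% (7.97 to 8.59) in fine-step single-value regions. For mitoxantrone they were 5.03% (2.96 to 7.93) with a common start, 8.01% (6.65 to 9.55) with different starts and 4.11% (3.89 to 4.34) in fine-step single-value regions. The intervals of common-start members and fine-step single-value regions overlapped for DMSO, genistein and mitoxantrone and did not for p-benzoquinone. The mix of steps also differed between the 2 kinds. Within pairs of fine A with fine B, the mitoxantrone order turned round, at 5.86% with a common start and 4.02% with different starts. The p-benzoquinone shares there were 56.4% (50.3 to 62.4) and 25.7% (20.4 to 31.6). With the common start first, they were 12.8% and 16.9% for DMSO and 6.59% and 12.05% for genistein. Only the p-benzoquinone intervals did not overlap in these pairs. Within one width class, under 150 bp, the p-benzoquinone share was 47.5% in 122 common-start members (38.4 to 56.8), 13.5% in 111 different-start members (7.77 to 21.3) and 7.93% in single-value regions (7.72 to 8.14). From 150 to under 200 bp it was 52.4% (45.0 to 59.7) in 187 common-start members, 18.6% (15.0 to 22.7) in 413 different-start members and 8.46% (8.27 to 8.65) in single-value regions. The excess of different-start members for genistein and mitoxantrone did not hold in every width class. Under 150 bp the genistein share was 8.11% in different-start members (3.77 to 14.8) and 8.33% in single-value regions (8.12 to 8.54), and the mitoxantrone share was 1.80% (0.219 to 6.36) in different-start members and 4.25% (4.09 to 4.40) in single-value regions. At 300 bp or more the genistein share was 17.7% in 305 different-start members (13.6 to 22.5) and 17.8% in single-value regions (17.0 to 18.7), and for DMSO the shares were 24.3% (19.6 to 29.5) in different-start members and 13.4% (12.7 to 14.2) in single-value regions.

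**Figure D2:**
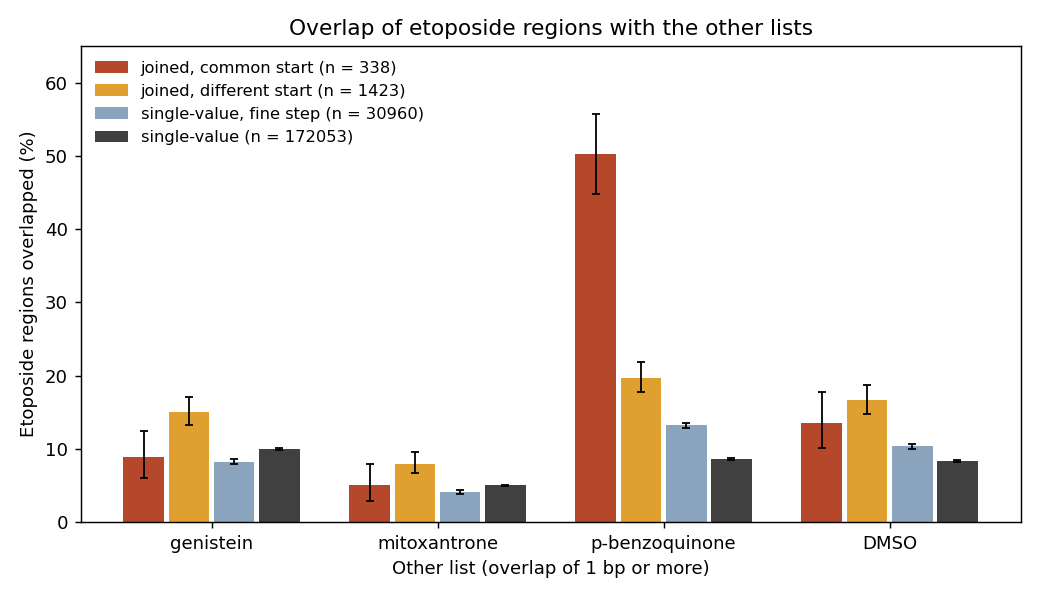
Percentage of etoposide regions overlapped by at least 1 bp by a region of each other list, for 338 common-start and 1423 different-start joined regions, 30960 fine-step single-value regions and all 172053 single-value regions. Bars start at 0 and error bars are exact binomial 95% intervals for counting error. The p-benzoquinone bar of common-start members stands at 50.3%, above every other bar.

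Many common-start members had the same coordinates as a p-benzoquinone region. In 125 of 338 (37.0%, 31.8 to 42.4) a component start was also the start of a p-benzoquinone component, and in 90 (26.6%, 22 to 31.7) both ends of the region were those of a p-benzoquinone region. Among the 1423 different-start members 38 shared a start (2.67%, 1.90 to 3.65) and 0 shared both ends, an upper interval bound of 0.259%. Among single-value regions 727 shared a start (0.423%) and 64 shared both ends (0.0372%). Over all etoposide regions the shares were 0.512% for a start and 0.0886% for both ends. Joined regions, 1.01% of the list, thus made up 90 of the 154 etoposide regions (58.4%) with both ends in the p-benzoquinone list. With DMSO, genistein and mitoxantrone, 0 of 1761 joined regions shared both ends (upper bound 0.209% each). Single-value regions did so in 48 cases with DMSO (0.0279%), 59 with genistein (0.0343%) and 31 with mitoxantrone (0.0180%). These shares lie below that bound, so the counts show no difference between the groups. Among joined DMSO regions, 2 of 280 with a common start shared both ends with a p-benzoquinone region (0.714%, 0.0866 to 2.56), against 0 of 7003 with different starts (upper bound 0.0527%).

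The 90 regions were spread over 20 chromosomes, with at most 9 on one of them (chromosome 1), and were 27 to 209 bp wide with a median of 153 bp. All but 3 of them, 87, paired fine A with fine B. In the p-benzoquinone list 89 of the 90 held 1 score, between 1.92 and 6.51 with a median of 2.16. The read number of that score was compared with those of the etoposide components in the 83 fine pairs where the score allowed exactly 1 read number within 0.5%. It equalled the fine B read number in 69 (83.1%, 73.3 to 90.5) and the fine A number in 1 (1.20%, 0.0305 to 6.53). In 91 such fine pairs that overlapped a p-benzoquinone region without sharing both ends, it equalled the fine B number in 13 (14.3%, 7.83 to 23.2) and the fine A number in 2 (2.20%, 0.267 to 7.71). Median read numbers were 17 in fine A, 9 in fine B and 9 in p-benzoquinone where both ends were shared, and 17 in fine A, 10 in fine B and 19 in p-benzoquinone where they were not. The p-benzoquinone scores were read on steps of that list, 0.2274 and 0.2408. With scores that allow 2 read numbers included, 71 of 86 fine pairs that shared both ends could take the fine B number. In 70 of them this was on the 0.2408 step. Low read numbers near the minimum of 8 can coincide. Whether reads of the same library entered both lists was not tested, and it bears on every comparison of joined regions with p-benzoquinone. With all regions that share both ends left out, a p-benzoquinone region overlapped 361 of 1671 joined regions (21.6%, 19.7 to 23.7), 80 of 248 common-start members (32.3%, 26.5 to 38.5) and 8.53% of single-value regions (8.40 to 8.67). The ratio of joined to single-value shares was then 2.53 (2.31 to 2.78). Members that shared a start but not both ends with p-benzoquinone remained in these counts. They were 35 common-start and 38 different-start members, so this ratio is not free of shared coordinates.

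Single members show the pattern. The region at the ANKRD42 promoter printed above, chr11:83193493-83193640, had 27 reads in fine A and 8 in fine B, and a p-benzoquinone region with the same ends had 8 reads. In CDH23, a cadherin gene of the inner ear, the 35 bp region at chr10:71438951-71438985 had 13 reads in fine A, 8 in fine B and 8 in p-benzoquinone. At chr18:70431432-70431462, 31 bp wide, there were 11 reads in fine A, 8 in fine B and 8 in p-benzoquinone. At chr3:144962142-144962168, 27 bp wide, there were 19 in fine A, 8 in fine B and 9 in p-benzoquinone, so there the p-benzoquinone number did not equal the fine B number.

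**Figure D3:**
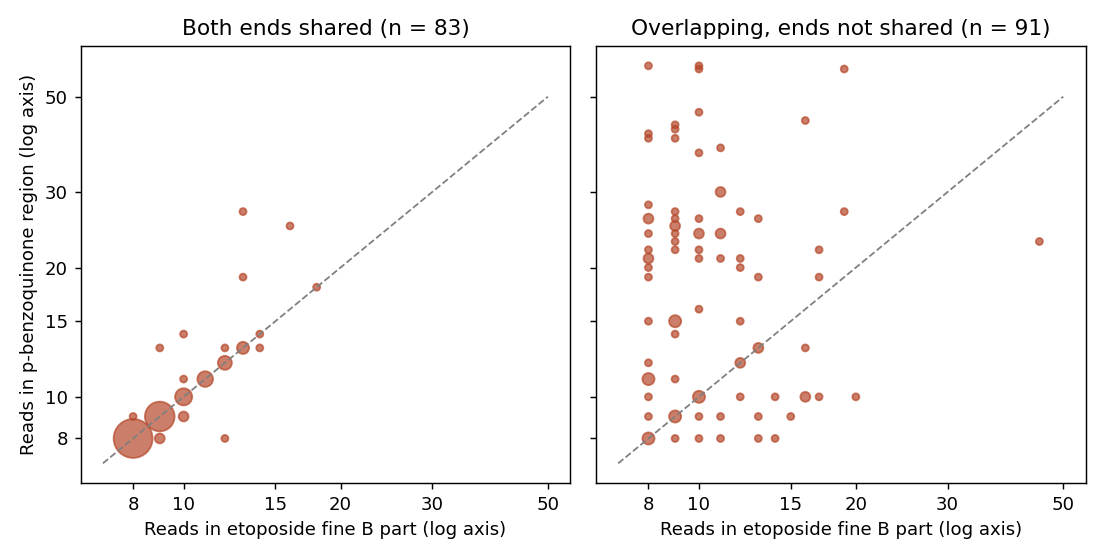
Reads in the fine B component of a joined etoposide region and in the p-benzoquinone region on it, on log axes, with point area proportional to the number of regions and the dashed line at equality. The left panel holds 83 regions that share both ends and the right panel 91 that overlap without sharing both, after leaving out p-benzoquinone scores that allow 2 read numbers. Most points on the left lie on the line, and points on the right are scattered, mostly above it.

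Joined regions lay in protein-coding gene bodies slightly more often than single-value regions. The numbers were 874 of 1761 (49.6%, 47.3 to 52.0) and 46.7% (46.5 to 46.9), with 46.7% over all etoposide regions and a ratio of 1.06 (1.01 to 1.11). Single-value regions on a fine step stood at 49.1% (48.5 to 49.6), and this interval lay within that of joined regions. Joined regions also hold coarse components, so the libraries behind these groups are not the same. Within 1 kb of a gene end lay 75 joined regions (4.26%, 3.36 to 5.31), against 2.64% of single-value regions (2.57 to 2.72) and 2.66% of all, a ratio of 1.61 (1.29 to 2.02). Fine-step single-value regions stood at 3.30% (3.10 to 3.51) and their interval overlapped that of joined regions. Of 1461 miRNA hairpins, 1 lay under a joined region. It was MIR30E on chromosome 1, of which 87 bases were covered by a region with scores of 2.51 and 24.44. Hairpins under single-value regions are not given here, so this count cannot be read against a base share.

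At least 1 joined region lay in 799 of 19126 protein-coding genes (4.18%), and gene length moved with that share. It was 1.95% of genes under 100 kb, 12.9% of genes from 100 to under 500 kb and 38.0% of genes of 500 kb or more (115 of 303). OPCML, a neuronal cell adhesion gene 1117.5 kb long on chromosome 11, held 4 joined regions among 103 etoposide regions. PDE1C, a cyclic nucleotide phosphodiesterase gene on chromosome 7, held 4 among 56. There were 8 genes with 3, among them CDH23 (of 38 etoposide regions), CSMD2 (of 69), a complement-control-domain gene, and DAB1 (of 122), a reelin signalling adaptor.

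Lists of genes were read in the same way. Among 13 genes of common fragile sites on these chromosomes, which are long genes prone to breaks under replication stress, 5 held a joined region (38.5%), and the median length of that list was 1477.9 kb. They included PARD3B, CCSER1, DLG2 and WWOX with 1 each. Their share stood beside 38.0% for all genes of 500 kb or more. In WWOX the components had a common start and scored 3.42 and 3.70. In PARD3B the scores were 13.23 and 4.10, in CCSER1 2.05 and 6.10, and in DLG2 1.96 and 6.10, each with different starts. Of 26 genes of leukaemia translocations 1 held a joined region (3.85%), RUNX1T1, a transcriptional corepressor gene, with scores of 1.96 and 2.28. KMT2A, BCR and ABL1 held 0. Of 20 topoisomerase and DNA repair genes 1 held one (5%), the end-joining gene XRCC4, with scores of 18.68 and 2.46. Of 13 erythroid genes on these chromosomes 0 did. The share was 4.18% over all genes and 12.9% over genes of 100 to under 500 kb, the class that holds the 141.5 kb median length of the leukaemia list, while the repair list had a median length of 76.1 kb.

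Joined regions were unevenly spread over chromosomes relative to single-value regions. Their share was highest relative to single-value regions on chromosome 21, with 36 of 1761 and a ratio of 1.58 (1.14 to 2.18), and on chromosome 19, with 44 and a ratio of 1.49 (1.11 to 2.00). Chromosomes 17, 10 and 1 followed at 1.35, 1.32 and 1.26. The lowest ratios were 0.686 on chromosome 14 (0.503 to 0.937), 0.691 on chromosome 8 (0.546 to 0.874), 0.711 on chromosome 3 and 0.712 on chromosome 13. Part of this order changed against fine-step single-value regions, which score lower than single-value regions as a whole. Chromosome 19 then stood at 1.11 (0.823 to 1.50), chromosome 17 at 1.16 (0.905 to 1.50), chromosome 1 at 0.973 (0.846 to 1.12), chromosome 13 at 1.06 (0.779 to 1.43) and chromosome 14 at 0.928 (0.675 to 1.28). Chromosomes 10 and 21 stayed above 1 at 1.31 and 1.42 (1.01 to 1.98 for chromosome 21), and chromosomes 3 and 8 below it at 0.775 and 0.733. Each of these intervals left out 1. Chromosome 12 stood at 1.33 (1.10 to 1.61), against 1.18 (0.983 to 1.43) relative to all single-value regions. The intervals are not corrected for the number of chromosomes. On chromosome 22, which carries BCR, there were 22 joined regions and a ratio of 1.14 (0.750 to 1.73). On chromosome 9, which carries ABL1, there were 58 and a ratio of 0.859 (0.666 to 1.11). Copy number in K562 differs between chromosomes and its part in these ratios was not tested.

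**Figure D4:**
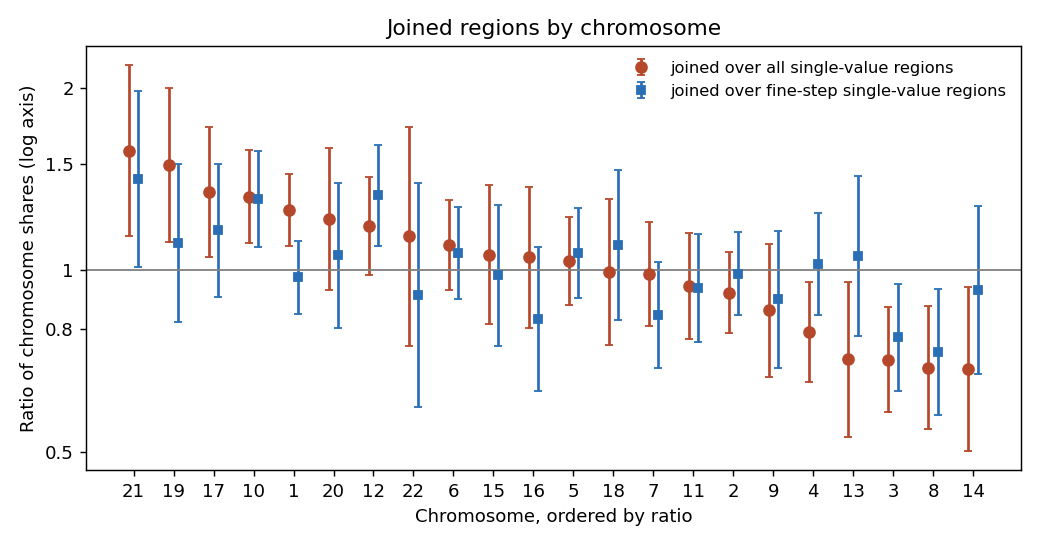
Share of joined regions on each chromosome divided by the share of all single-value regions (circles) or of fine-step single-value regions (squares), on a log axis, with 95% intervals for counting error. Chromosome 21 stands highest at 1.58 and chromosome 14 lowest at 0.686 among the circles, and the square of chromosome 1 lies at 0.973 while its circle lies at 1.26.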

How the data were processed

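TOP2A-bound DNA was sequenced from K562 cells, and the authors deposited 1 list of regions per treatment, each with start, end, component starts and a score. The score has no stated unit in the deposited lists; a comma separates the scores of components. The submitters' processing notes name hg38, SAMtools 0.1.19 and Bowtie2 2.1.0. How regions were called and pooled is not given in the sources used here. Depth per library is unknown, since the lists hold called regions only.

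Regions on chromosomes 1 to 22 were kept. Members were chosen by holding at least 2 scores, a rule that used the scores themselves, and members, gene lists and comparisons were chosen with earlier results of these data known. Steps were searched in the single scores, and a score was put on a step within 0.5% of a whole multiple. In regions of 2 components these were taken to come from different libraries, so a step used by one was removed from the other. In 0 such regions were both on the same step only. Of the 24 regions of 3 components, 22 could be placed on 3 different steps. The others could not, so the assumption of different libraries may not hold for every region. Overlap was 1 bp or more. Genes and promoter windows came from RefSeq tables of GRCh38.p14, matched by position. Named regions were the 5 three-component and 10 two-component members with the highest lowest score, those in all 4 other lists, the 5 widest and narrowest, and those over promoters. Named genes were the 5 with most joined regions (ties by symbol) and list genes holding one; ANKRD42, MIR30E, KMT2A, BCR and ABL1 were added after their values were seen. A gene that the rule names is not reported here. Intervals of ratios are log-normal and all cover counting error only. The comparison of joined DMSO regions with the p-benzoquinone list was added after seeing the data. Steps and overlaps were tested on simulated data. Computations used scipy 1.17.1, numpy 2.4.6, matplotlib 3.10.9 and pandas 2.3.3 under Python 3.11.15.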

Additional observations from a re-analysis of the deposited data

How the results depend on the processing

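No paired analysis was possible because the authors pooled the libraries, so no result comes from a test. Of 61 alternatives, 27 gave a value close to the reported one, 32 moved and 2 reversed. Counting only components of at least 4 left 157 joined regions, and dropping each library step in turn left 216 to 539. With common starts required and every component at least 4, 12 regions remained.

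Ratios of joined to single-value overlap kept their direction in all alternatives but one. For p-benzoquinone they were 3.46 at 50 bp or more, 3.60 with 50% of the region covered, 4.47 with every score at least 4, 2.31 with different starts only, 2.53 without regions sharing both ends, 1.94 against fine-step regions and 2.03 to 4.89 with a library step dropped. For DMSO they were 1.71 in a 150 bp window, 1.64 with 50% covered, 1.71 with every score at least 4, 1.67 against wider single-value regions, 1.56 against fine-step regions and 1.65 to 1.82 with a step dropped. For genistein they were 1.72 with every score at least 4, 1.19 against wider regions, 1.68 against fine-step regions and 0.950 to 1.86 with a step dropped, reversing to 0.950 without coarse. For mitoxantrone they were 1.20 with 50% covered, 1.25 against wider regions, 1.81 against fine-step regions and 1.03 to 1.84 with a step dropped. The gene-body ratio was 1.01 against fine-step regions. The chromosome 22 ratio was 0.608 with components of at least 4, below 1. The share of resolved pairs that joined both fine steps was 47.9%, and 57.2% at a tolerance of 0.3%. The causes were not tested. Alternatives against fine-step regions, with different starts, without regions sharing both ends, at the 0.3% tolerance and for common starts were chosen after seeing the data. GC content and repeat share of the regions were not run, since no genome was used here.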
